A study of Mus musculus with 4 samples.

Results

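The genes described here are the protein-coding genes on mouse chromosomes 14, 18 and 19 that reached at least 1 FPKM (fragments scaled to the length of the transcript and the depth of the library) in at least 1 of 4 oral cancer cell lines, taken in their order along each chromosome. They numbered 1072 of the 11380 genes that passed the same limit in the whole genome. Chromosome 14 gave 375 of 816 protein-coding entries (from D830030K20Rik at chr14:3208488 to Tmtc4 at chr14:122984035, mm10), chromosome 18 gave 288 of 489 (from Crem at chr18:3266048 to Gm45871 at chr18:90592528) and chromosome 19 gave 409 of 632 (from Ighmbp2 at chr19:3259076 to Csf2ra at chr19:61228429). The remaining entries stayed under 1 FPKM in every line, and 73, 47 and 33 of them were listed at 0 in all lines. The chromosomes were selected on the measured difference between AOC11-LN and AOC11, so their overall shift in that pair is a description, with no test. At the limit of 1 FPKM, Ebpl, 2310034G01Rik and Papss2 had maxima of 1.01, 1.04 and 1.05 FPKM and were kept, whereas Bbs1, Pcdhga5 and Eno4 had maxima of 0.997, 0.991 and 0.982 FPKM and were not.

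Cancer cells were cultured from C57BL/6 mice whose cheek lining had been painted with the carcinogen DMBA. AOC3 and AOC11 came from the oral tumors of mouse 3 and mouse 11. Lymph node metastases of the same mice gave AOC3-LN and AOC11-LN. Each line passed once through a flank tumor in a syngeneic mouse and was cleared of fibroblasts, so that each is 1 cultured line of 1 animal, and 1 mRNA library was sequenced for each. With 1 library per line, no difference between lines has a replicate check and no p-value is given. The 7 epithelial markers examined (Krt5, Krt14, Krt8, Krt18, Cdh1, Epcam and Cldn4) were at or above 1 FPKM in all lines, with sums between 3186 and 3727 FPKM. The sums hide a difference in Krt5, at 498.9 and 274.7 FPKM in AOC3 and AOC3-LN and 4.99 and 17.0 in AOC11 and AOC11-LN. None of 6 fibroblast and none of 3 endothelial markers reached 1 FPKM in any line. Of 5 leukocyte markers, Cd3e and Adgre1 were listed at 0 throughout and only Csf1r reached 1 FPKM, a chromosome 18 gene described further on.

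Each mouse chromosome has its centromere close to its first end, so that a gene's position gives its distance from the centromere along a single long arm. Cancer cells often carry extra or missing copies of whole chromosomes or stretches of them, and the transcripts of many neighbouring genes then tend to move together, although feedback can hold single genes at their former level. Averaging neighbouring genes therefore shows regional shifts that single genes do not. DNA copy number was not analysed here, and its part in the differences was not tested.

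A promoter is the sequence around the start of a gene where transcription is set up, and in mammals many active promoters are rich in CpG, a C followed by a G, the site of DNA methylation. Promoters are shown for 4 genes whose difference lay within 0.05 of the median of their chromosome, to show the range of sequences among genes near the median. For chromosomes 14 and 19, the genes with the fewest and the most CpG were taken among such genes. The 250 bases before the start of transcription are from RefSeq on GRCm38.p6, 5′ to 3′ on the strand of the gene, with every CpG in capitals.
Parp4: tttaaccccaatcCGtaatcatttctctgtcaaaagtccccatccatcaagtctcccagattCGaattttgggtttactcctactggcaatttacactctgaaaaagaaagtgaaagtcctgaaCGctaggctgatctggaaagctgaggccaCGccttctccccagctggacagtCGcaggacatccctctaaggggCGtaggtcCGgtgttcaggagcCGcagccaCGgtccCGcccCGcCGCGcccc
Glud1: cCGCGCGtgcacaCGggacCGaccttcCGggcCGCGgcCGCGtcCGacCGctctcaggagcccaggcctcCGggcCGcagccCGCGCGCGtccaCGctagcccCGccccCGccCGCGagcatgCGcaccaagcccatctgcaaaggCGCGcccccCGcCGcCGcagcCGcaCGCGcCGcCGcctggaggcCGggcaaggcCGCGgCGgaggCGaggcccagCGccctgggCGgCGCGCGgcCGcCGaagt
Acsl5: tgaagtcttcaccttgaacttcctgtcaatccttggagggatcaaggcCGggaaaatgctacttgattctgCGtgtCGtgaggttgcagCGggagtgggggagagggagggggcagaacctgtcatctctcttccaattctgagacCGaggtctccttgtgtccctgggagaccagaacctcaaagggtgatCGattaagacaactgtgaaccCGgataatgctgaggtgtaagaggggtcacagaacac
Mrpl49: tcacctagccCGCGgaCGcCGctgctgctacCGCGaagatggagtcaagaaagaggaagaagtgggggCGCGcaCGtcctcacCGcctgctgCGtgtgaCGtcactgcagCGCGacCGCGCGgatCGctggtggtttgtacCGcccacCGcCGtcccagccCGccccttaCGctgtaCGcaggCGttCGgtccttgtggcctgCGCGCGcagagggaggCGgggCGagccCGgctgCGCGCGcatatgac
Parp4, a poly(ADP-ribose) polymerase of the vault particle, has 13 CpG in this window (chr14:56575369-56575618, plus strand, 54.4% G and C), and its levels in AOC3, its lymph node line, AOC11 and its lymph node line were 5.36, 2.96, 8.22 and 6.03 FPKM. Glud1, the mitochondrial glutamate dehydrogenase, has 46 CpG (chr14:34310477-34310726, plus strand, 82.0% G and C), and its levels were 109.4, 114.6, 119.4 and 89.96 FPKM in the same order. On chromosome 19, Acsl5, which activates long-chain fatty acids, has 7 CpG (chr19:55253119-55253368, plus strand) and levels of 68.8, 66.1, 82.7 and 104.6 FPKM. The GENCODE M21 entry of Acsl5 starts earlier, at chr19:55251938, so that this window lies before the RefSeq start but inside that entry. Mrpl49, a protein of the mitochondrial ribosome, has 35 CpG (chr19:6057756-6058005, minus strand) and levels of 31.1, 34.2, 26.96 and 34.1 FPKM. Part of its window lies inside the entry of the gene Fau, which starts at chr19:6057844. The differences on the log2 scale used below were -0.43 and -0.47 for Parp4 and Glud1 and 0.30 and 0.36 for Acsl5 and Mrpl49, and their closeness within a chromosome was set by the choice of genes. A promoter with 1 start was found for 209 of 375 genes on chromosome 14 and 252 of 409 on chromosome 19, with a median of 17 and 18 CpG. At least 1 CG was present in 91.1% of all 22862 RefSeq promoters with 1 start.

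Where 4 FPKM values follow each other, they are those of AOC3, AOC3-LN, AOC11 and AOC11-LN, in this order. Differences between lines are given as log2(FPKM + 1) after quantile normalization, which gives the 4 libraries the same distribution of values, and they understate the change of genes with low levels. In AOC11-LN against AOC11, genes of chromosomes 14 and 18 were lower and genes of chromosome 19 were higher, while genes over the whole genome were centred near 0. The median difference was -0.45 for the 375 genes of chromosome 14 (quartiles -0.72 and -0.14), -0.51 for the 288 genes of chromosome 18 (quartiles -0.76 and -0.22) and 0.34 for the 409 genes of chromosome 19 (quartiles 0.05 and 0.66), against -0.04 for all 11380 genes. Chromosomes 18 and 14 were the lowest and chromosome 19 the highest of 20. The other 17 chromosomes had medians from -0.29 on the X chromosome to 0.24 on chromosome 7. As plain FPKM ratios over genes at 5 FPKM or more in the mean of the lines, and without normalization, the median gene in AOC11-LN stood at 0.717 of its level in AOC11 on chromosome 14, at 0.685 on chromosome 18 and at 1.31 on chromosome 19, against 0.978 for all genes.

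Most genes of each chromosome lay on the side of its median. The difference was below 0 for 308 genes of chromosome 14 (82.1%), 252 of chromosome 18 (87.5%) and 91 of chromosome 19 (22.2%), beside 53.0% of all genes tested. Large changes were few. A difference below -1, a halving of FPKM + 1, was reached by 32 genes of chromosome 14, 30 of chromosome 18 and 2 of chromosome 19, where 2.35% of all genes did so, and a difference above 1 by 6, 5 and 36 genes, where 3.71% of all genes did so. Among the genes past 1 in either direction, 42.3% were higher in AOC11-LN, and without quantile normalization 54.2% were. The chromosomes were selected on this comparison, so nothing is read from these counts beyond their size.

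**Figure D1:**
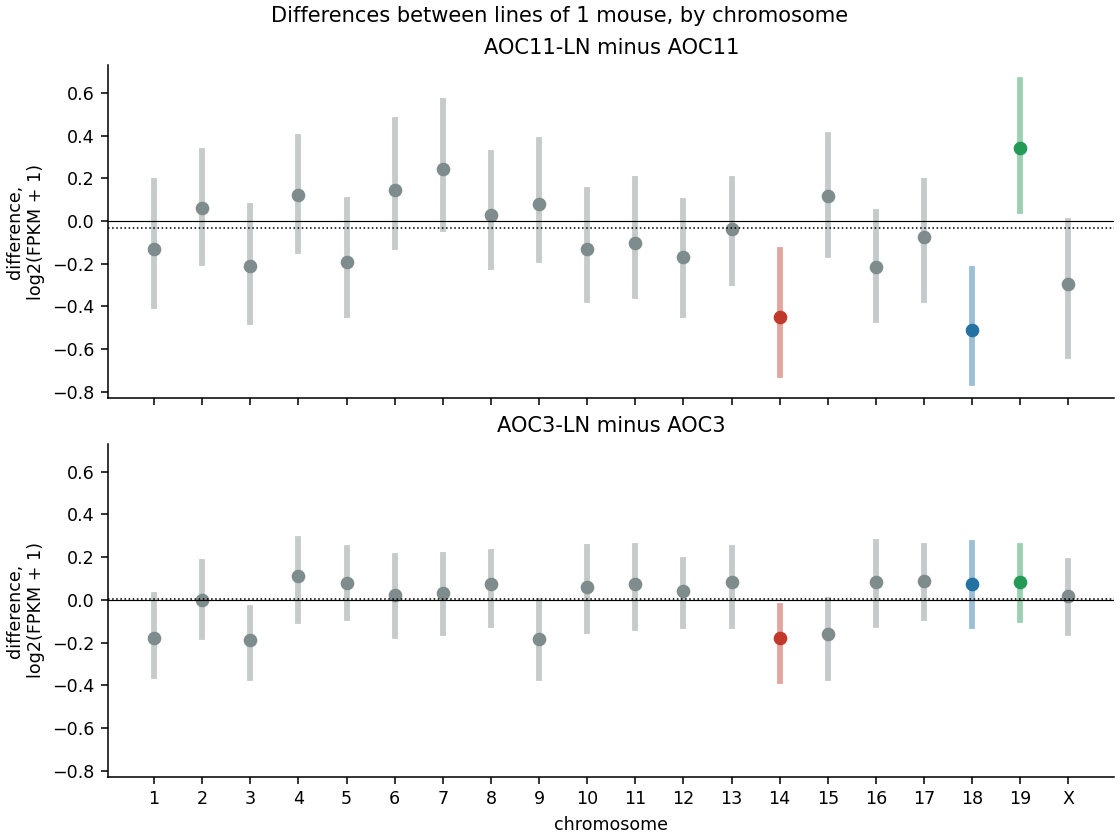
Median difference (points) and quartiles (bars) in log2(FPKM + 1) for each of 20 chromosomes in AOC11-LN minus AOC11 (top) and AOC3-LN minus AOC3 (bottom). Chromosome 14 is red, 18 blue and 19 green, and the dotted line is the median of all genes. In the top panel chromosomes 14 and 18 sit at -0.45 and -0.51 and chromosome 19 at 0.34, and in the bottom panel chromosome 14 sits at -0.18 beside the similarly low chromosomes 1, 3, 9 and 15.

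The pair from mouse 3 was not the main one used to choose the chromosomes, but earlier results of these data were known. It is therefore no independent check. In this pair the medians of the 3 chromosomes were smaller. In AOC3-LN against AOC3, the median difference was -0.18 on chromosome 14 (quartiles -0.38 and -0.03), 0.07 on chromosome 18 (quartiles -0.12 and 0.27) and 0.09 on chromosome 19 (quartiles -0.10 and 0.25), against 0.00 for all genes. Chromosome 14 was lower in both mice, with 292 of its genes (77.9%) below 0 in mouse 3, beside 49.1% of all genes tested. It was not alone there, since the medians of chromosomes 1, 3, 9 and 15 lay at -0.18, -0.19, -0.18 and -0.16. On chromosome 14, 237 genes (63.2%) were lower in the lymph node line of both mice, against 23.8% of all genes, and the share was 35.1% on chromosome 18 and 6.60% on chromosome 19. On chromosome 14 the product of the shares in the 2 mice, 82.1% and 77.9%, is 64.0%, close to the 63.2% counted. Differences past 1 were seen in mouse 3 for 14, 9 and 10 genes below -1 on the 3 chromosomes, where 2.84% of all genes were, and for 5, 7 and 8 genes above 1, where 1.32% of all genes were.

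Each line was then set against the mean of the 4 lines, gene by gene, to see which line carried each shift. On chromosome 18 the median deviation was -0.45 in AOC11-LN, 0.05 in AOC11, 0.16 in AOC3 and 0.23 in AOC3-LN, and AOC11-LN was the lowest line for 76.7% of the genes, against 29.7% over all genes. On chromosome 19 the deviations were 0.27 in AOC11-LN, -0.08 in AOC11, -0.13 in AOC3 and -0.05 in AOC3-LN, and AOC11-LN was the highest line for 57.2% of the genes, against 27.7% over all genes. On these 2 chromosomes, then, a single line stood apart from the others. This was not particular to them. AOC11-LN was also the highest line for 57.3% of the genes of chromosome 7 and the lowest for 59.6% of those of chromosome 16. Chromosome 14 differed from chromosomes 18 and 19 in that both lymph node lines lay below both oral tumor lines. They were at -0.23 in AOC11-LN and -0.07 in AOC3-LN, against 0.20 in AOC11 and 0.13 in AOC3. Chromosome 1 also had both lymph node lines below, at 0.007 in AOC11-LN and -0.16 in AOC3-LN. Its oral tumor lines were at 0.13 in AOC11 and 0.015 in AOC3.

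**Figure D2:**
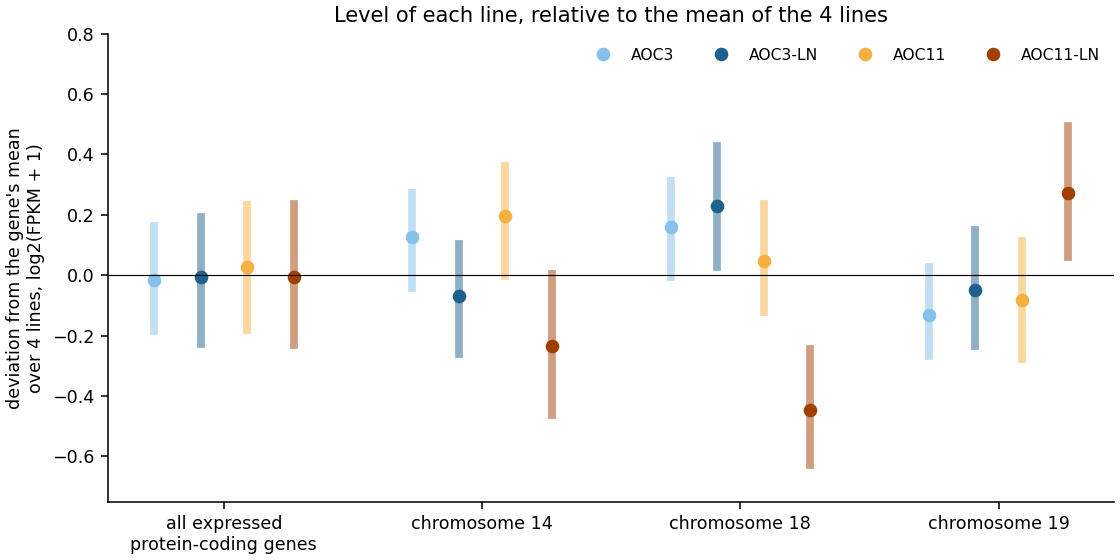
Deviation of each line from the mean of the 4 lines in log2(FPKM + 1), as the median (points) and quartiles (bars) over genes, for all 11380 genes and for each chromosome. AOC11-LN is lowest on chromosomes 14 and 18 (-0.23 and -0.45) and highest on chromosome 19 (0.27), and all lines lie near 0 over all genes.

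The 2 oral tumor lines were close to each other on these chromosomes. In AOC3 minus AOC11 the medians were -0.07, 0.10 and -0.04 on chromosomes 14, 18 and 19, against -0.04 for all genes. The 2 lymph node lines differed more, with medians in AOC3-LN minus AOC11-LN of 0.19, 0.65 and -0.29 against 0.00 for all genes, and chromosome 18 was the highest of the 20 chromosomes. These comparisons use the same libraries as those within mice and are no separate evidence. Without quantile normalization the median of all genes in AOC3-LN minus AOC11-LN lay at -0.12, and the 3 medians at 0.06, 0.55 and -0.38 are then to be read relative to it.

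Position along the chromosome was examined in bins of 10 Mb, of which those with at least 10 genes were read. In AOC11-LN minus AOC11 all 10 bins read on chromosome 14 had a median below 0, from -0.76 at 120 to 130 Mb to -0.23 at 50 to 60 Mb. All 9 bins on chromosome 18 had a median below 0, from -0.77 at 10 to 20 Mb to -0.41 at 30 to 40 Mb. All 6 bins on chromosome 19 had a median above 0, from 0.08 at 30 to 40 Mb to 0.47 in the first 10 Mb. No bin that was read had a median of the opposite sign. The last 9 genes of chromosome 19, at 60 to 70 Mb, were too few to read and had a median of -0.08. Well expressed genes of distant bins give examples. On chromosome 14, Rpl15, a ribosomal protein near the first end, had 1006 FPKM in AOC11 and 739.7 in AOC11-LN, and Ipo5, a nuclear import receptor near the last end, had 80.7 and 51.8. On chromosome 18, Usp14, a proteasome-bound deubiquitinase in the first bin, had 139.1 and 86.7 FPKM, and Atp5a1, a subunit of the mitochondrial ATP synthase in the bin at 70 to 80 Mb, had 476 and 345.8. The best expressed gene of that bin, the ribosomal protein gene Rpl17, had 1064 and 1077 FPKM. The bin at 80 to 90 Mb of chromosome 18 had 20 of 20 genes below 0, and the bin at 120 to 130 Mb of chromosome 14 had 12 of 12.

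**Figure D3:**
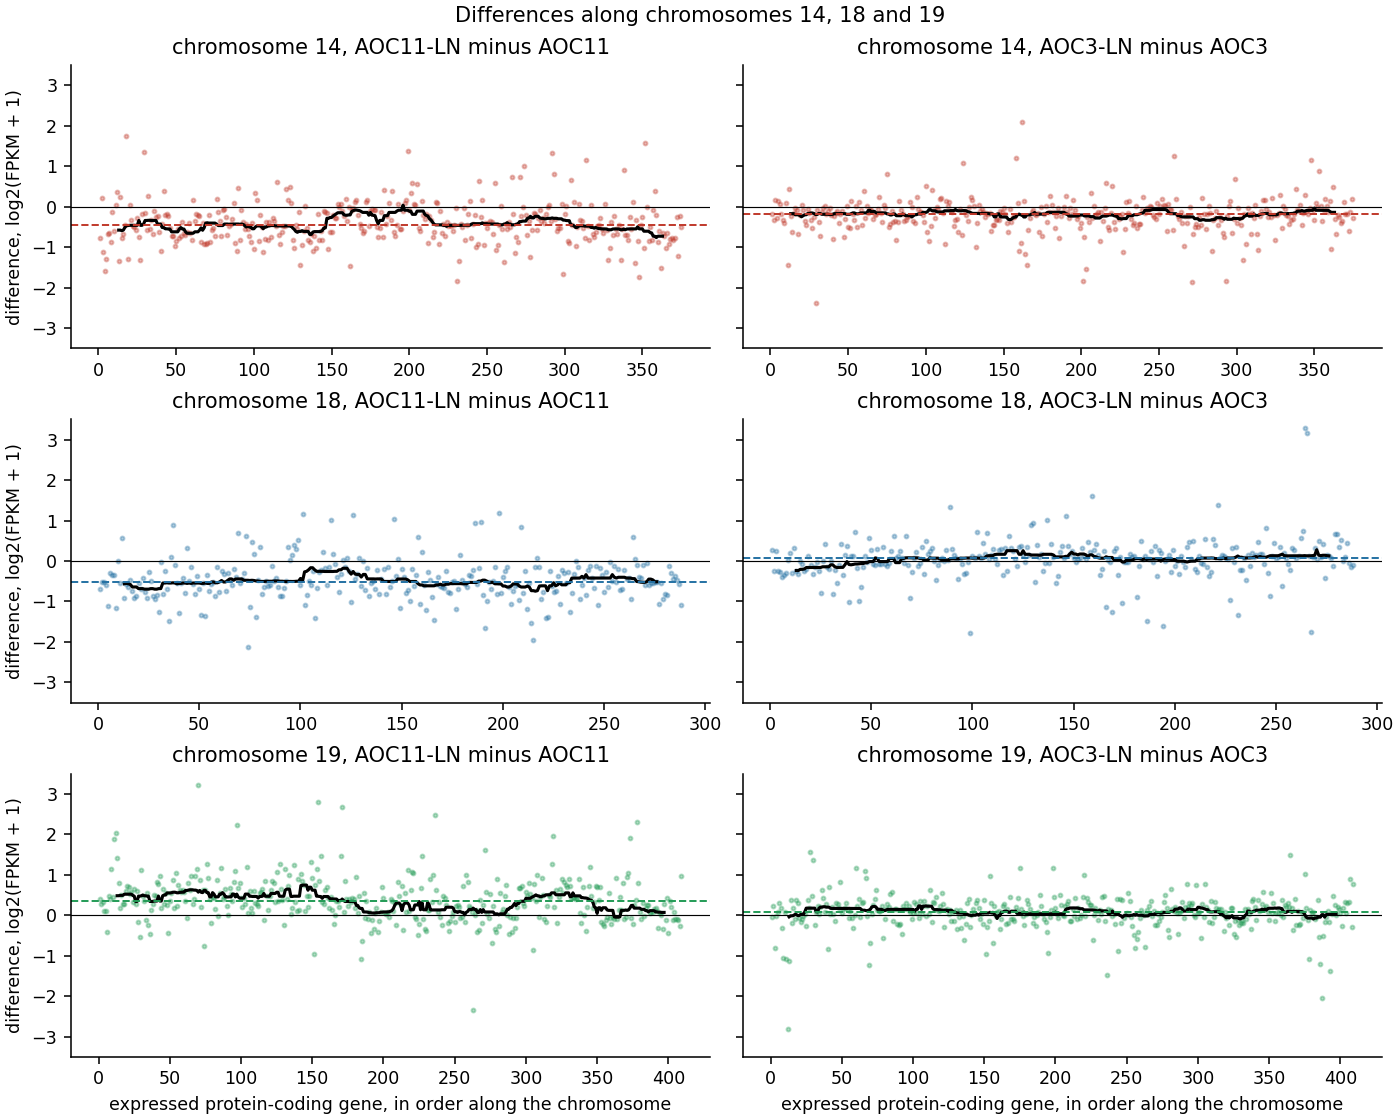
Difference in log2(FPKM + 1) for each gene (points) in order along chromosomes 14 (red), 18 (blue) and 19 (green), for AOC11-LN minus AOC11 (left) and AOC3-LN minus AOC3 (right). The black line is the running median of 25 genes and the dashed line the median of the chromosome. On the left the running median stays on 1 side of 0 nearly throughout on chromosomes 14 and 18 and comes close to 0 in places in the later part of chromosome 19, and in the right panel of chromosome 18 it starts below 0 and crosses it.

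The weakest stretch of chromosome 14 lay between 50 and 60 Mb, where 68 of 92 genes were below 0 and the median was -0.23. At 50 to 55 Mb the median of 43 genes was -0.20, and at 55 to 60 Mb that of 49 genes was -0.38. The first stretch holds Apex1, the main abasic site endonuclease of base excision repair, at 43.8 FPKM in AOC11 and 43.1 in AOC11-LN, and Pnp, a purine salvage enzyme, at 52.1 and 48.0, both chosen after their values were seen. Xpo4 and Lats2, which lie close together in the second stretch, had the much larger differences of -1.83 and -1.35. The 5 genes at 40 to 45 Mb had a median of 0.16, with 1 below 0, but these are too few to read.

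On chromosome 18 the pair from mouse 3 had a step, although the bins did not show a clean one. Their medians were -0.24 in the first 10 Mb, -0.16 at 10 to 20 Mb and -0.04 at 20 to 30 Mb. Of the 9 bins read 5 were above 0, and the bin at 50 to 60 Mb was at -0.03. The position below was fitted to these same values. The best single change point of AOC3-LN minus AOC3 fell between Ss18, which ends at chr18:14682914, and Taf4b, which starts at chr18:14783245. The 34 genes before it had a median of -0.20 (quartiles -0.29 and 0.00) and 25 of them were below 0, whereas the 254 genes after it had a median of 0.09 (quartiles -0.08 and 0.29) and 92 were below 0. The gap of 0.29 between both sides was the largest among the best change points of the 20 chromosomes, the next being 0.18. With each gene set against genes of like GC content, the sides had medians of -0.18 and 0.10. In AOC11-LN minus AOC11 both sides were low, at -0.61 and -0.51. Relative to the mean of the 4 lines, AOC3-LN lay at 0.05 before the step and at 0.26 after it, and AOC3 at 0.18 and 0.15, so that the step was in AOC3-LN.

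Genes before the step show how small and how shared this difference was. Cul2, the scaffold of a ubiquitin ligase, had 30.2 FPKM in the oral tumor line of mouse 3 and 24.6 in its lymph node line. Snrpd1, a core protein of the spliceosome, had 183.1 and 149.9 FPKM. Wac, a regulator of histone ubiquitination, had 69.1 and 56.1 FPKM. These 3 genes had differences of -0.26 for Cul2, -0.31 for Snrpd1 and -0.32 for Wac. Kif5b, the heavy chain of kinesin, had 47.3 and 48.8 FPKM, and Rmc1 had 18.6 and 24.5, so the stretch was not uniform. These examples were chosen after their values were seen.

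In AOC11-LN minus AOC11, the best change point of chromosome 18 separated 58 genes at -0.56 from 230 at -0.49. The gap of 0.07 was the smallest of the 20 chromosomes, but with GC correction another position was chosen, the gap turned to -0.15 and 8 chromosomes had a larger one. On chromosome 14 the best change point lay between Zc3h13 and Cog3, with 315 genes at -0.43 before it and 60 at -0.63 after it, and with GC correction it moved to between Fbxo34 and Atg14, where the gap turned from -0.20 to 0.15. On chromosome 19 it lay between Eml3, which ends at chr19:8941582, and Mta2, with 161 genes at 0.49 before it and 248 at 0.20 after it. The genes on either side differed also in base composition, with a median transcript GC content of 56.1% before and 48.6% after. Against genes of like GC content the sides of chromosome 19 had medians of 0.38 and 0.29, and the part of GC content in the step was not tested further.

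Base composition moved with AOC11-LN minus AOC11 over the whole genome. Among all genes the median difference was -0.18 in the lowest tercile of transcript GC content (the genes divided in 3 parts of like size), -0.04 in the middle tercile and 0.15 in the highest tercile. Chromosomes 14 and 18 hold GC-poor genes (medians 47.7% and 46.9%) and chromosome 19 GC-rich ones (51.9%), against 49.8% for all genes. The medians within each tercile were also set against those of all genes. The difference of chromosome 18 from all genes was -0.38, -0.39 and -0.43 from the lowest to the highest tercile, that of chromosome 14 was -0.37, -0.24 and -0.51, and that of chromosome 19 was 0.28, 0.32 and 0.33. After each gene was set against genes in its decile of GC content, the medians of the 3 chromosomes were -0.35, -0.39 and 0.33, and they remained the second lowest, the lowest and the highest of 20. The range of bin medians along chromosome 19 went from 0.39 to 0.15, and all 6 bins were still above 0. In AOC3-LN minus AOC3 GC content moved the medians less, and chromosome 14 was at -0.17 after the same correction.

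**Figure D4:**
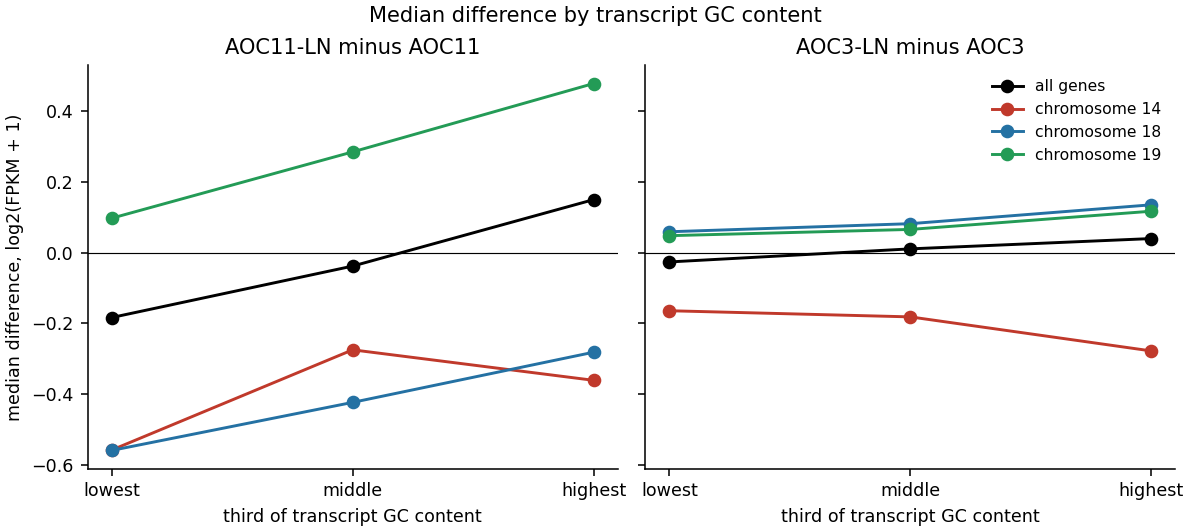
Median difference in log2(FPKM + 1) by tercile of transcript GC content for all genes (black) and for chromosomes 14 (red), 18 (blue) and 19 (green), in AOC11-LN minus AOC11 (left) and AOC3-LN minus AOC3 (right). On the left all genes climb from -0.18 to 0.15, chromosome 19 lies above them and chromosomes 14 and 18 below them in every tercile.

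Transcript length and expression level were looked at in the same way. Over all genes AOC11-LN minus AOC11 went from 0.10 in the shortest tercile to -0.17 in the longest, and after each gene was set against genes of its length the chromosome medians were -0.38, -0.44 and 0.33. Genes at every level took part. In the lowest, middle and highest tercile of mean FPKM the medians of chromosome 18 were -0.42, -0.53 and -0.52, those of chromosome 14 were -0.34, -0.48 and -0.47, and those of chromosome 19 were 0.24, 0.41 and 0.36. By the number of CpG in the promoter, from the fewest to the most, medians were 0.05, -0.01 and -0.12 for all genes, 0.32, 0.29 and 0.25 for chromosome 19 and -0.37, -0.43 and -0.62 for chromosome 14. Relative to all genes these were 0.28, 0.30 and 0.37 for chromosome 19 and -0.41, -0.42 and -0.50 for chromosome 14. Other gene types on the same chromosomes, with transcripts of at least 400 bases and at least 1 FPKM in any line, had medians of -0.18 (33 entries), -0.33 (26 entries) and 0.12 (34 entries), against 0.00 for 958 such entries in all.

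Genes of known function were grouped in 6 lists. Over all genes 53.0% were below 0, 2.35% below -1 and 3.71% above 1 in AOC11-LN minus AOC11. Below 0 were 82.1% of the genes of chromosome 14, 87.5% of chromosome 18 and 22.2% of chromosome 19. Below -1 were 8.53% of the genes of chromosome 14 and 10.4% of those of chromosome 18. In AOC3-LN minus AOC3 49.1% of all genes were below 0, 2.84% below -1 and 1.32% above 1. In that pair 77.9% of the genes of chromosome 14, 40.6% of chromosome 18 and 36.4% of chromosome 19 were below 0. The counts of each list are to be read beside these shares, and counts near them show nothing particular to a list. All 12 housekeeping genes measured on chromosomes 14 and 18 were lower in AOC11-LN, with a median of -0.51, and 9 of 10 on chromosome 19 were higher, with a median of 0.28. Only Kif5b among them passed a difference of 1. Tpt1, a translationally controlled tumor protein on chromosome 14, had 3659, 3409, 2705 and 2069 FPKM. Fau, a ribosomal protein gene on chromosome 19, had 739.6, 888.2, 889.3 and 1618 FPKM. In both AOC11-LN stood outside the range of the other lines. Fth1, the ferritin heavy chain, did not follow this pattern, since it had 2258, 2902, 1218 and 1659 FPKM and was higher in the lymph node line of both mice. Reads of Tpt1, Fau and Fth1 can also come from their processed copies elsewhere, and their values are uncertain to that extent.

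Tumor suppressor and other cancer genes followed their chromosomes. All 8 measured on chromosomes 14 and 18 were lower in AOC11-LN (median -0.78, or -0.51 with no filter on low values), and 3 of them passed -1. Apc, the scaffold that targets beta-catenin for destruction, had 11.2, 11.8, 12.1 and 4.26 FPKM, a difference of -1.39 within mouse 11. Lats2, a kinase of the Hippo pathway, had 11.9, 8.97, 16.1 and 5.80 FPKM, a difference of -1.35. Pbrm1, a subunit of the PBAF chromatin remodeling complex, had 23.2, 19.2, 29.2 and 13.1 FPKM, a difference of -1.10. For all 3 genes AOC11-LN was the lowest line.

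Rb1, the retinoblastoma protein that holds back entry into S phase, had 3.36, 2.87, 5.30 and 2.54 FPKM, with AOC11 the highest line, AOC11-LN the lowest and a difference of -0.97. Smad4, the shared partner of the receptor-regulated Smads in TGF-beta signaling, had 55.9, 61.1, 38.3 and 25.1 FPKM, and Smad2 had 36.0, 41.4, 35.6 and 24.8. Bap1, a nuclear deubiquitinase, had 23.3, 20.6, 33.0 and 22.2 FPKM, so that AOC11 and not AOC11-LN was the line apart. In mouse 3 these 8 genes had a median of 0.04, with 4 below 0. On chromosome 19 the list had 4 of 6 genes above 0 and a median of 0.44. Mxi1, an antagonist of Myc, had 24.5, 20.6, 7.52 and 16.6 FPKM and a difference of 1.04, with AOC11 the lowest line.

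Genes of replication and chromosome segregation behaved likewise. Of the 12 measured on chromosomes 14 and 18, 11 were lower in AOC11-LN (median -0.59), and of the 9 on chromosome 19, 8 were higher (median 0.42). Diaph3, a formin that builds actin filaments in dividing cells, had 30.03, 23.7, 56.4 and 22.01 FPKM. Kif20a, a mitotic kinesin needed for cytokinesis, had 134.1, 137.6, 87.5 and 57.3 FPKM. Cdkn3 on chromosome 14 was the exception, with 55.2 FPKM in AOC11 and 55.9 in AOC11-LN. On chromosome 19, Cdca5, which protects cohesion of sister chromatids, had 21.8 FPKM in AOC11 and 29.1 in AOC11-LN. Smc3, a subunit of cohesin listed with the housekeeping genes and also on chromosome 19, had 30.6 and 39.3.

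**Figure D5:**
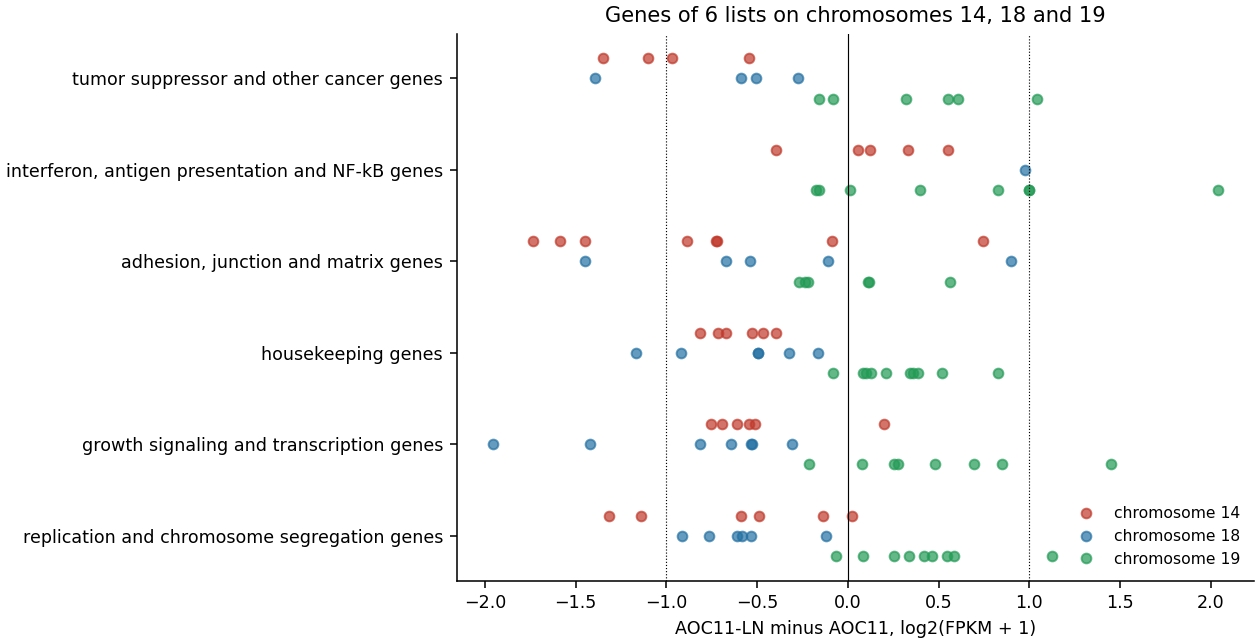
Difference in log2(FPKM + 1) between AOC11-LN and AOC11 (horizontal axis) for each measured gene (points) of 6 lists (rows) on chromosomes 14 (red), 18 (blue) and 19 (green). Dotted lines mark -1 and 1. In most rows red and blue points lie left of 0 and green points right of it, while the interferon row has 5 of its 6 red and blue points right of 0.

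Growth signaling and transcription genes had 12 of 13 members below 0 on chromosomes 14 and 18 (median -0.61) and 7 of 8 above 0 on chromosome 19 (median 0.38). Pmaip1, which encodes the cell death protein Noxa, had 52.1, 78.6, 29.3 and 6.81 FPKM, a difference of -1.96. Hbegf, a ligand of the EGF receptor, had 94.8, 156.2, 56.5 and 20.4 FPKM, a difference of -1.42. For both genes the 2 lymph node lines were the 2 extremes, with AOC3-LN highest and AOC11-LN lowest. Egr1, an immediate early gene downstream of EGF receptor signaling, had 3.63, 9.81, 3.44 and 2.24 FPKM, with AOC3-LN again the highest and a difference of 1.34 in mouse 3.

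On chromosome 19, 3 of the 8 genes of the list were above 1 in AOC3-LN minus AOC3. In this pair 1.96% of the genes of chromosome 19 and 1.32% of all genes were above 1. Fosl1, a subunit of AP-1, had 39.0, 84.1, 16.0 and 19.3 FPKM. Dusp5, a phosphatase that inactivates ERK, had 30.7, 64.2, 13.0 and 11.1 FPKM. Tle4, a transcriptional corepressor, had 0.467, 2.06, 0.102 and 0.238 FPKM. The corresponding differences in mouse 11 were 0.28, -0.22 and 0.08 for Fosl1, Dusp5 and Tle4. Vldlr, a lipoprotein receptor, was past 1 in mouse 11, with 0.338 FPKM in AOC11 against 3.27 in AOC11-LN and 2.80 and 2.43 in the lines of mouse 3.

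Adhesion, junction and matrix genes were lower on chromosomes 14 and 18 in AOC11-LN for 11 of 13 genes (median -0.72, or -0.17 with no filter on low values), 4 of them past -1, and split evenly on chromosome 19 (3 of 6 above 0, median -0.05). Lmo7, a protein of adherens junctions, had 6.26, 14.1, 46.9 and 13.5 FPKM. AOC11 was the line far above the others. Fermt2, an activator of integrins, had 12.6, 13.4, 27.1 and 9.25 FPKM. Lox, the enzyme that crosslinks collagen, had 1.39, 0.041, 1.66 and 0.054 FPKM and so was near 0 in both lymph node lines. Plau, the urokinase plasminogen activator, had 1266, 737.4, 987.8 and 612.3 FPKM, lower in both lymph node lines by a difference of -0.74 in mouse 3 and -0.72 in mouse 11. Clu, which encodes the secreted chaperone clusterin, was an exception on chromosome 14, with 96.5, 25.5, 70.6 and 120.1 FPKM.

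Interferon, antigen presentation and NF-kB genes were the list that did not follow chromosomes 14 and 18. Of 6 members measured on chromosomes 14 and 18, 5 were above 0 and none was past 1 in AOC11-LN minus AOC11 (median 0.23, and 0.057 to 0.36 under other settings). All 6 were below 0 in AOC3-LN minus AOC3 (median -0.44), where 77.9% of the genes of chromosome 14 and 40.6% of chromosome 18 were. Psme1 and Psme2, the subunits of the interferon-inducible proteasome activator PA28, lie beside each other at chr14:55578123-55581529 and chr14:55587441-55591113. Psme1 had 113.2, 31.3, 129.1 and 167.3 FPKM. Psme2 had 88.8, 30.4, 143.6 and 151.8 FPKM, and reads of a close copy elsewhere in the genome can be counted with it. For both genes AOC3-LN was far below the other lines. Irf9, the DNA-binding subunit of the complex that answers type I interferon, followed at chr14:55603571 with 2.23, 1.25, 3.90 and 6.56 FPKM. Ripk3, also close by at chr14:55784995, had 2.03, 0.948, 0.407 and 0.800 FPKM. Cd74 on chromosome 18 had 0.160, 0.119, 0.788 and 3.25 FPKM. Both were at low levels, and Psme1, Psme2, Irf9 and Ripk3 are neighbours and not separate places on the chromosome.

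On chromosome 19 the same list had 6 of 8 genes above 0 in mouse 11 (median 0.61, and 0.20 to 0.74 under other settings) and 6 of 8 below 0 in mouse 3 (median -0.14). Of all genes of this chromosome 36.4% were below 0 in mouse 3. Jak2, a kinase of interferon and cytokine receptors, had 8.27, 6.83, 8.30 and 17.7 FPKM, a difference of 0.999 that stayed just under 1. Ifit3 had 0.347, 0, 0.331 and 2.13 FPKM, and Ifit1 had 0.059, 0, 0.311 and 1.78. These interferon-induced genes belong to a family of close copies, and their low levels leave them uncertain. Cd274, which encodes PD-L1 and lies at chr19:29367455-29388095, had 0.464, 0.397, 0.790 and 0.898 FPKM, just under the limit of 1, so it was not counted. Pdcd1lg2, its neighbour, was listed at 0 in all lines.

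The largest single differences of AOC11-LN minus AOC11 were taken among genes that reached 5 FPKM in any line. On chromosome 14 Xpo4, Lmo7, Hr and Abcc4 were among the lowest, from -1.83 to -1.51. Xpo4, a nuclear export receptor, had 13.7, 14.3, 18.3 and 4.62 FPKM, and a gene model on the same strand overlaps it. Abcc4, an exporter of cyclic nucleotides and drugs, had 15.2, 20.9, 6.14 and 1.82 FPKM. Against the trend of the chromosome, Il3ra, Slain1, Pck2, Pdlim2 and Lcp1 were higher, from 1.75 to 1.16. Il3ra, the alpha chain of the interleukin 3 receptor, had 13.2, 7.44, 3.72 and 15.4 FPKM. Pck2, the mitochondrial enzyme that makes phosphoenolpyruvate, had 31.6, 21.2, 16.8 and 44.0 FPKM. For Il3ra and Pck2 AOC11 was the lowest line.

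On chromosome 18 the lowest 5 were Tslp, Pmaip1, Csf1r, Ccbe1 and Taf4b, from -2.12 to -1.48. Tslp, an epithelial cytokine that acts on dendritic cells, had 53.4, 53.0, 125.4 and 28.8 FPKM, with AOC11 the highest line and AOC11-LN the lowest. Csf1r, the receptor for the macrophage growth factor CSF1, had 0.995, 0.435, 20.8 and 6.01 FPKM. The other leukocyte markers stayed at or below 0.064 FPKM, and Hmgxb3 overlaps Csf1r on the opposite strand. Ccbe1, a secreted protein of lymphatic vessel growth, had 26.4, 24.7, 23.1 and 7.28 FPKM, with AOC11-LN apart from 3 similar lines. The highest 5 were Afap1l1, Cxxc5, Pcdhgc4, Dpysl3 and Tmco6, from 1.20 to 1.005. Pcdhgc4 overlaps many other entries of the gamma protocadherin cluster on its strand, and its value is uncertain.

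On chromosome 19 the lowest 5 were Ankrd1, Lrrn4cl, Loxl4, Slc35g1 and AC109138.7, from -2.34 to -0.55, and only Ankrd1 passed -1. Ankrd1, a target of the YAP coactivator, had 39.8, 21.8, 51.8 and 9.52 FPKM. The highest 5 were Efemp2, Lbhd1, Fads1, Insl6 and Pdcd4, from 3.21 to 2.29. Efemp2, a matrix protein of elastic fibers, had 28.6, 16.9, 1.48 and 24.2 FPKM, and Mus81 overlaps it on the opposite strand. Fads1, the delta-5 fatty acid desaturase, had 16.3, 14.02, 4.77 and 36.3 FPKM. Pdcd4, an inhibitor of translation initiation, had 12.9, 5.11, 3.73 and 23.1 FPKM. In Efemp2 AOC11 was the line that stood apart, and in Fads1 and Pdcd4 AOC11 was lowest and AOC11-LN highest. Lbhd1 overlaps other entries on its strand, and Insl6 and AC109138.7 have transcripts of 708 and 473 bases, a length at which FPKM estimates are less certain.

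A stretch of 94.0 kb near the start of chromosome 19 (chr19:3896050-3990007) held 5 of the genes in a row, of which 4 were past 1 in opposite directions in the 2 mice, where 0.773% of all genes were. It was noticed after the values were seen. Tcirg1, a subunit of the vacuolar proton pump, had 28.8, 12.8, 33.7 and 75.5 FPKM. Aldh3b1, an aldehyde dehydrogenase, had 4.47, 1.36, 3.94 and 17.9 FPKM. Unc93b1, which carries nucleic acid-sensing Toll-like receptors to endosomes, had 9.94, 0.463, 0.595 and 6.42 FPKM, and Acy3, an aminoacylase, had 3.01, 0.691, 1.27 and 5.86. All 4 were lower in the lymph node line of mouse 3 and higher in that of mouse 11. Ndufs8, a subunit of respiratory complex I that lies between Tcirg1 and Aldh3b1, had 75.3, 82.3, 94.1 and 130.9 FPKM and followed its chromosome. Chka, next to the stretch on one side, had 72.6, 59.7, 38.4 and 50.6 FPKM.

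Past 1 in the same direction in both mice were 3 of the 1072 genes, where 0.281% of all genes were. Lox was below -1 in both, and Dpysl3 and Pold4 were above 1 in both. Pold4, the small subunit of DNA polymerase delta, had 46.4, 124.4, 31.6 and 69.5 FPKM, and it overlaps AC109138.7. In mouse 3 alone, the largest differences above 0 on chromosome 18 were those of the neighbouring genes Siglec15 and Slc14a1, both chosen after their values were seen. Siglec15, a sialic acid-binding receptor of osteoclasts, had 0.090, 8.96, 0 and 0.649 FPKM. Slc14a1, a urea transporter, was listed at 0 in AOC3 and had 7.49, 0.008 and 0.061 FPKM in AOC3-LN, AOC11 and AOC11-LN. Both genes were therefore at more than 5 FPKM in 1 line only. Tmem173, which encodes STING, the adaptor of the cytosolic DNA sensor, was lower in the lymph node line of mouse 3, with 2.87, 0.091, 4.07 and 6.59 FPKM. Gng2, a G protein subunit on chromosome 14, had 4.36, 0.010, 0.973 and 4.97 FPKM and was lower in AOC3-LN than in AOC3 and higher in AOC11-LN than in AOC11.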

How the data were processed

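Poly(A) RNA of cultured cells of 4 lines was sequenced as paired reads, 1 library per line. Per the labels and methods, the authors trimmed reads with Trim Galore, mapped them to mm10 with TopHat2 and estimated FPKM on GENCODE M21 with Cufflinks (versions and strand setting not given in the sources used here). The deposited FPKM are neither log-transformed nor quantile-normalized. Depth, inferred from the steps between low values, was about 28.3 to 33.5 M fragments, with 71.9 to 74.9% of low values within 0.1 of a whole fragment, and 1 FPKM of a gene of median length (3576 bases) stood for about 96.7 to 113.8 fragments. Counts were therefore not recovered.

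From these values log2(FPKM + 1) was quantile-normalized over 34721 entries (pandas 2.3.3, numpy 2.4.6, scipy 1.17.1, Python 3.11.15; plots matplotlib 3.10.9), and protein-coding genes at 1 FPKM or more in any line were kept. Medians, bins of 10 Mb and the single change point with the least absolute deviation (at least 20 genes a side) were computed. GC correction subtracted the median of the gene's decile of transcript GC content. Chromosome medians and the change point were checked on simulated data, and the bins and GC correction were not. The simulated step was larger than the gaps described here and had no GC trend. Recovery of steps of the size described was therefore not checked. Positions are from GENCODE M21. A gene was called at a log2 difference past 1. Named genes were list members, the 5 largest differences each way per chromosome at 5 FPKM or more in any line, the 3 best expressed genes per bin, genes beside change points and 3 genes on each side of 1 FPKM. The members and lists were chosen with earlier results of these data known. Some genes that this rule names are not reported here.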

Additional observations from a re-analysis of the deposited data

Results flagged for a closer look

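Effects of opposite sign in the 2 mice are given here, and the difference between the mice was not tested for any of them. The median of chromosome 18 was -0.51 in AOC11-LN minus AOC11 and 0.07 in AOC3-LN minus AOC3. Of the 1072 genes, 13 were past 1 in opposite directions in the 2 mice, where 88 of all 11380 genes (0.773%) were. On chromosome 14 the differences in mouse 11 and mouse 3 were 1.37 and -2.38 for Gng2, -1.45 and 2.11 for Ang2, 1.16 and -1.08 for Lcp1 and -1.74 and 1.15 for Lmo7. On chromosome 18 they were -1.07 and 1.59 for Sema6a and -1.42 and 1.39 for Spire1. On chromosome 19 they were 1.15 and -1.06 for Tcirg1, 1.89 and -1.09 for Aldh3b1, 2.04 and -2.82 for Unc93b1, 1.41 and -1.14 for Acy3, 1.13 and -1.24 for Ctsw, 2.47 and -1.48 for Insl6 and 2.29 and -1.09 for Pdcd4. All 7 on chromosome 19 were higher in AOC11-LN and lower in AOC3-LN. Over all genes 69 of the 88 had this direction. Reads of Ang2 can be shared with other angiogenin genes of its cluster, and its value is uncertain.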

How the results depend on the processing

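With 1 library per line no replicate could be left out, and no alternative gives a measure of error. A fit of lymph node against oral tumor lines paired by mouse, with 2 pairs, was not run, and both mice are given separately. Depth limits mostly genes near 1 FPKM. Length correction, and GC correction of anything but the medians in AOC11-LN minus AOC11, were chosen after seeing the data, and the cause of a change was not tested unless the alternative itself gives it. Medians of chromosomes 14, 18 and 19 in AOC11-LN minus AOC11 kept their sign under every alternative.

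Without quantile normalization, the chromosome 14 median was -0.39 in AOC11-LN minus AOC11, the medians of chromosomes 14, 18 and 19 were -0.24, 0.031 and 0.036 in AOC3-LN minus AOC3 and 0.059, 0.55 and -0.38 in AOC3-LN minus AOC11-LN, 8 genes of chromosome 18 were above 1 and 1 of chromosome 19 below -1 in AOC11-LN minus AOC11 (both also when centred on genes of other chromosomes), and 50% of the chromosome 19 bins lay above 0 in AOC3-LN minus AOC3. Without this step the median of all genes was 0.011 in AOC11-LN minus AOC11, -0.051 in AOC3-LN minus AOC3 and -0.12 in AOC3-LN minus AOC11-LN. The medians and bins of each comparison are to be read relative to these. In AOC3-LN minus AOC11-LN the share of genes past 1 that were above was 55.4%, and 44.8% without quantile normalization. With no filter on low values, which adds entries at 0, the medians of chromosomes 14, 18 and 19 were -0.025, -0.15 and 0.081 in AOC11-LN minus AOC11, -0.0051, 0.00 and 0.0093 in AOC3-LN minus AOC3, 0.00 and 0.00 for 14 and 18 in AOC3 minus AOC11, and 0.00, 0.15 and -0.064 in AOC3-LN minus AOC11-LN. With GC correction the AOC11 medians of chromosomes 14 and 18 were -0.355 and -0.39, and with length correction -0.38 and -0.44. A pseudocount of 0.1 gave -0.57 for chromosome 18 and 0.74 in AOC3-LN minus AOC11-LN. With all gene types chromosome 14 was at -0.39 in mouse 11 and -0.15 in mouse 3.

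Change points changed sign with GC correction for chromosomes 14 (0.15) and 18 (-0.15) in AOC11-LN minus AOC11 and for chromosomes 14 (-0.047) and 19 (0.13) in AOC3-LN minus AOC3, since another position was chosen. The range of bin medians became 0.15 for chromosome 19 in mouse 11 with GC correction, 0.14 for chromosome 18 in mouse 11 and 0.067 for chromosome 19 in mouse 3 with bins of 20 Mb, and 0.34 and 0.27 for chromosomes 14 and 19 in mouse 3 with bins of 5 Mb.

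Counts of genes past 1 also moved. In mouse 11, all gene types gave 19 and 11 above on chromosomes 14 and 18 and 5 below on 19. A pseudocount of 0.1 gave 11 above on 14, 11 above and 48 below on 18 and 4 below on 19. A 1.5-fold limit gave 16 above and 136 below on 14, 13 and 113 on 18 and 123 and 7 on 19. A mean of 5 FPKM gave 2 above on 18 and 1 below on 19, and 5 FPKM in any line gave 1 below on 19. In mouse 3, all gene types gave 10 above on 14, 14 above and 14 below on 18 and 16 above on 19. A pseudocount of 0.1 gave 24 below on 14, 11 above and 18 below on 18 and 21 below on 19. A 1.5-fold limit gave 8 above and 46 below on 14, 19 and 18 on 18 and 22 and 22 on 19. A mean of 5 FPKM gave 3 above and 8 below on 14, 1 and 5 on 18 and 5 above on 19, and 5 FPKM in any line gave 3 above and 9 below on 14 and 5 above on 19. Of the other values that are not single genes, 336 stayed within their limits. Of single genes 1320 values stayed on their side of 1, 27 passed it and 1 no longer did. Of the 1320, 276 came from the setting with no filter and 244 from that of 5 FPKM in any line. These 2 settings choose genes and leave the value of a single gene unchanged, so their values could not move. The median of the adhesion list on chromosome 19 lay between -0.22 and -0.002.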
